A study of Arabidopsis thaliana with 8 samples.

Results

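UDP-glycosyltransferase (UGT) genes were examined in vegetative shoot apices of Arabidopsis thaliana. They were taken as all genes with a probe set of their own on the Affymetrix ATH1 array whose symbol is UGT followed by a digit. This gave 47 genes, each with 1 probe set, out of 13356 genes with such a probe set. A further 3 probe sets are shared by a UGT gene and another gene (UGT89B1, UGT71D1, and UGT73B2 with UGT73B3) and were left out. Total RNA came from dissected apices with their leaf primordia, from soil-grown plants of 20 days, kept at 23 °C under short days (8 h of light, 16 h of darkness). The 4 genotypes were 35S:GIF1, labelled a GIF1 overexpressor, rGRF3, labelled a GRF3 overexpressor, rGRF3x35S:GIF1, which carries both transgenes and is called the double line here, and wild-type Col-0. GIF1 is a transcriptional co-activator that partners GRF transcription factors in leaf growth, and the 35S promoter is active in most tissues. There were 8 arrays, a pair per genotype with the letters A and B. What the letter marks and how many independent transgenic lines were used are not given in the sources used here.

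UGT enzymes move a sugar from a UDP-sugar onto a small acceptor such as a flavonoid, a phenylpropanoid, a sterol or a hormone. The sugar usually makes the acceptor more soluble, allows storage in the vacuole and, for hormones, lowers activity. In plants the family is large and arose in part by tandem duplication, and its members are named by sequence similarity: the number gives the family, the next letter the subfamily and the last digit the gene. UGT transcripts are often regulated together with the pathway that makes the acceptor, as in flavonoid and glucosinolate synthesis.

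Of the 47 UGT genes, 19 were expressed, meaning a log2 signal of 4 or more on 2 or more of the 8 arrays. This is 40.4% of the UGT genes, against 56.2% of all single-gene probe sets. The other 28 were UGT71B5, UGT71B6, UGT71B8, UGT71C1, UGT71C2, UGT71C3, UGT72E2, UGT72E3, UGT73B4, UGT73B5, UGT73C1, UGT73C2, UGT73C7, UGT73D1, UGT74F1, UGT76B1, UGT76D1, UGT76E1, UGT76E2, UGT76E12, UGT78D3, UGT84A1, UGT84A3, UGT84A4, UGT84B1, UGT84B2, UGT85A3 and UGT85A7. Among these, 21 stayed under a log2 signal of 3 on all arrays, where the lowest signal of any probe set was 2.12. The 28 include UGT71B6, an abscisic acid glucosyltransferase, UGT84B1, an auxin glucosyltransferase, UGT74F1 and UGT76B1, which act on salicylic acid, and UGT84A1, UGT84A3 and UGT84A4, which make hydroxycinnamate glucose esters. A signal under 4 does not show that a transcript was absent, because probe sets differ in sensitivity.

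**Figure D1:**
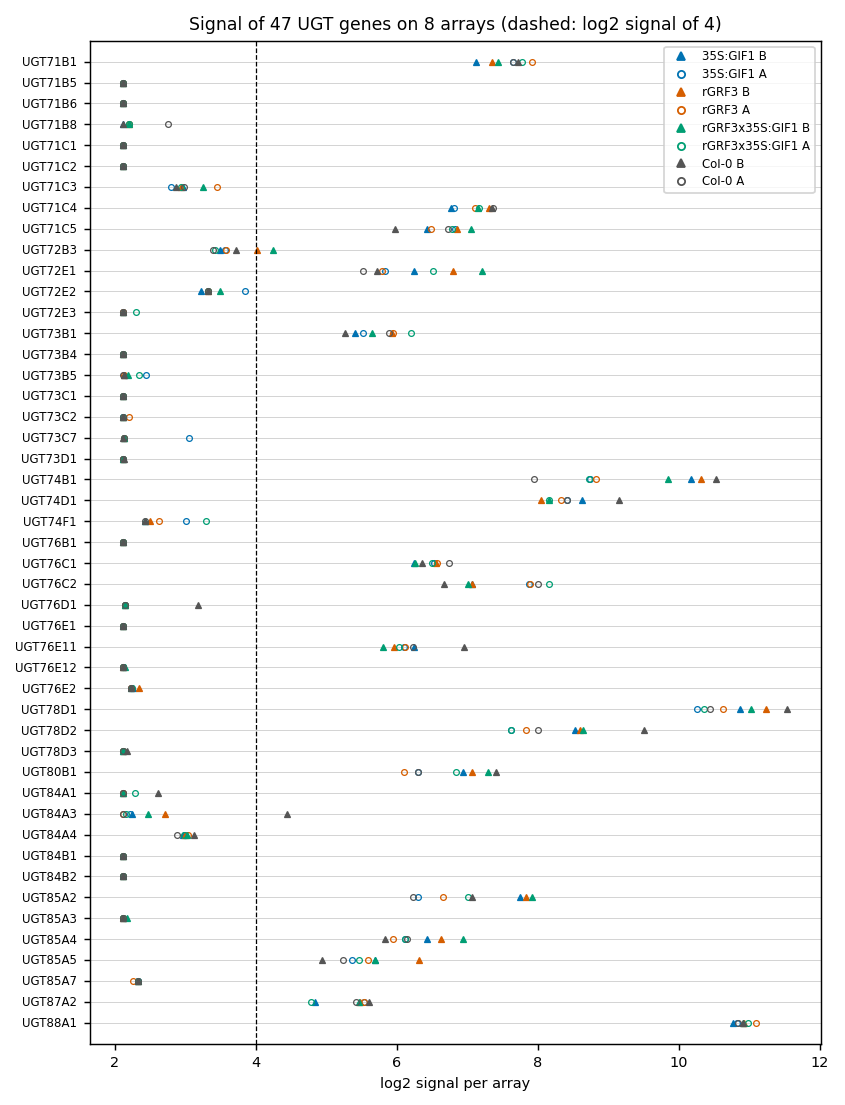
Log2 signal of each of the 47 UGT genes (rows) on the 8 arrays, with filled triangles for letter B, open circles for letter A and colours for genotype. The 19 expressed genes lie at or beyond the dashed line at a log2 signal of 4 on at least 2 arrays, and the other 28 lie left of it apart from 1 array of UGT84A3 at 4.44.

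UGT72B3 was just inside the threshold and UGT84A3 just outside it. UGT72B3 reached 4.02 in rGRF3 B and 4.25 in double line B, and lay between 3.39 and 3.72 on the other 6 arrays. It therefore counted as expressed only through 2 arrays of lines with rGRF3. UGT84A3 reached 4.44 on Col-0 B and lay between 2.12 and 2.72 on the other 7 arrays.

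The 47 genes fall in 21 subfamilies, and 14 of these had an expressed member. Within 7 subfamilies expressed and non-expressed members occurred side by side. UGT71C had 2 of 5 members expressed (UGT71C4 and UGT71C5), UGT85A had 3 of 5 (UGT85A2, UGT85A4 and UGT85A5), UGT78D had 2 of 3 (UGT78D1 and UGT78D2), and UGT76C had both of its members expressed. None of the 3 UGT73C genes, the 3 UGT84A genes or the 2 UGT84B genes was expressed. In the gene order of the TAIR10.1 assembly, 31 of the 47 lie in 13 groups of neighbours with at most 2 other protein-coding genes between them. In 5 of these groups expressed and non-expressed genes were neighbours, in 7 no gene was expressed, and UGT76C2 with UGT76C1 on chromosome 5 was the group in which all were. UGT71C5 and UGT71C4 were expressed beside UGT71C3 on chromosome 1, and UGT85A2 and UGT85A5 lay between the non-expressed UGT85A7 and UGT85A3 on the same chromosome. How far probes of near-identical neighbours share signal was not tested, since probe sequences were not used here.

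The comparison of each transgenic line with Col-0 asks which UGT transcripts differ with the transgenes. No expressed UGT gene passed in limma's fit with p-values adjusted over all 14005 tested probe sets. This held for 35S:GIF1 (0 of 19, with 0.00714% of all tested probe sets called), rGRF3 (0 of 19, with 0.0% called) and the double line (0 of 19, with 0.00714% called), and equally with the letter as a replicate block, where 0.00714%, 0.0% and 0.0357% of all probe sets were called. At an unadjusted p under 0.05 there were 1, 1 and 2 UGT genes in these 3 comparisons, beside 1.41%, 3.42% and 6.44% of all tested probe sets. With the block there were 3, 5 and 5 UGT genes, beside 5.1%, 11.3% and 17.5%. The median log2 difference of the 19 genes was -0.12 for 35S:GIF1, 0.13 for rGRF3 and 0.06 for the double line, beside -0.01, -0.02 and -0.01 over all tested probe sets. Standard errors without the block ran from 0.13 to 1.01 with a median of 0.31 on the log2 scale, and with the block from 0.12 to 0.34 with a median of 0.19. Both arrays lay above both Col-0 arrays for 2 genes with 35S:GIF1, 4 with rGRF3 and 3 with both transgenes (9.23%, 11.5% and 15.8% of all tested probe sets), and below them for 3 genes in each line (9.77%, 14.0% and 16.6%). The 3 comparisons share the Col-0 arrays, so a high or low Col-0 value enters all of them. Without the block the nominal p-values measure the spread between the 2 arrays per genotype, which includes any difference between the letters. With the block they measure the spread left after a letter difference shared by the genotypes is taken out. Either spread may be technical.

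**Figure D2:**
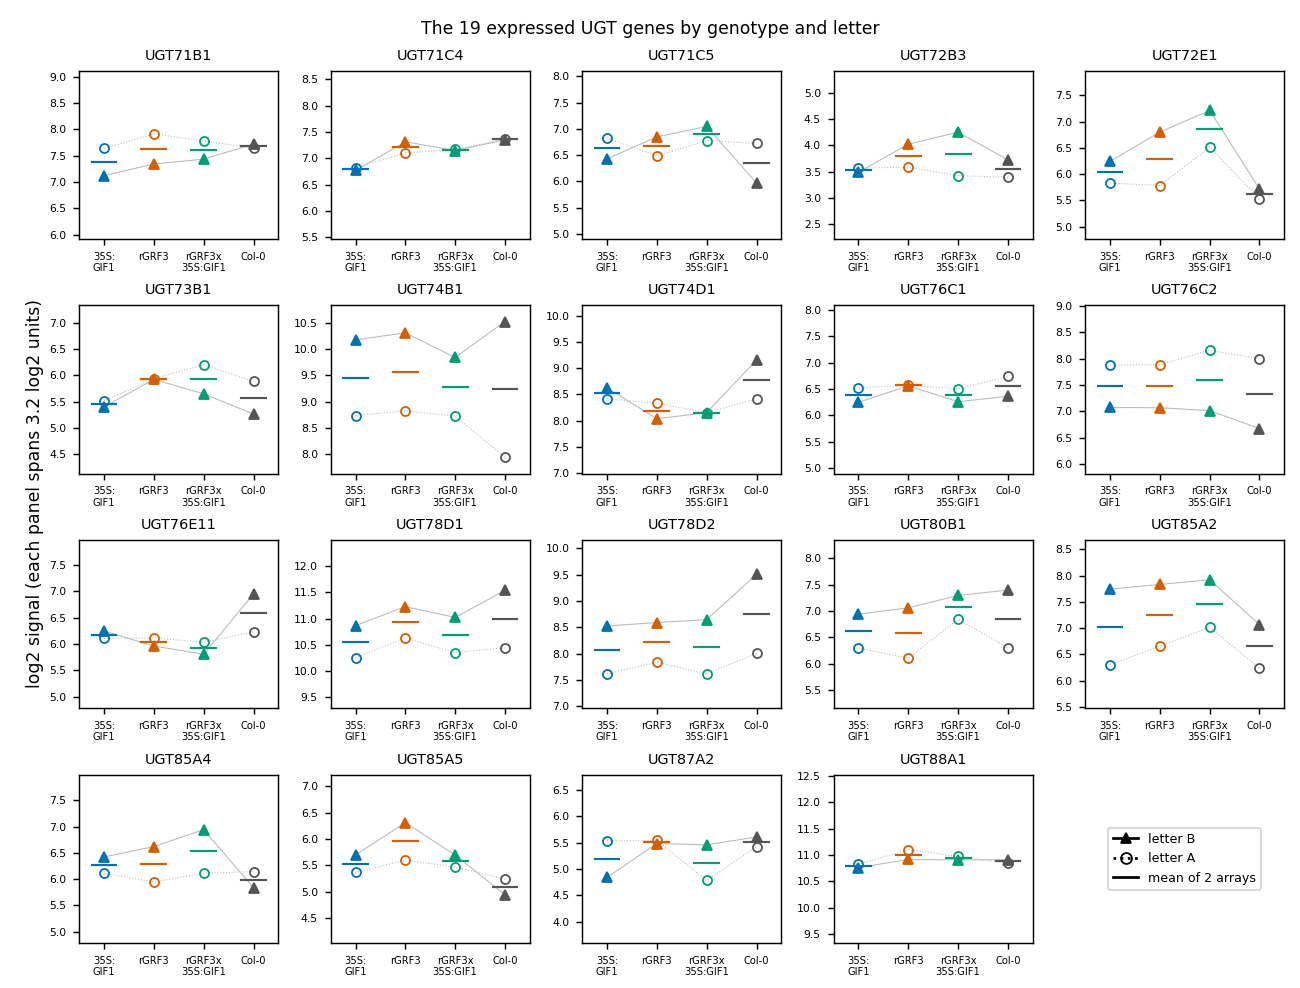
Log2 signal of the 19 expressed UGT genes in 35S:GIF1, rGRF3, rGRF3x35S:GIF1 and Col-0, with triangles and solid lines for letter B, circles and dotted lines for letter A, and bars for the mean of the 2 arrays. UGT72E1 has its highest mean in the double line, at 6.86 against 5.62 in Col-0, while UGT74B1 shows a wide gap between letters in every genotype.

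UGT72E1 (AT3G50740), a glucosyltransferase of monolignol aldehydes and thus of the lignin branch of phenylpropanoid metabolism, had the largest positive difference from Col-0. For A and B in turn its log2 signal was 5.83 and 6.24 in 35S:GIF1, 5.78 and 6.80 in rGRF3, 6.52 and 7.21 in the double line, and 5.53 and 5.72 in Col-0. All 6 arrays of the lines lay above both Col-0 arrays, and the double line lay above both arrays of 35S:GIF1 but overlapped rGRF3. Its mean was 6.86 ± 0.49 in the double line and 5.62 ± 0.14 in Col-0 (SD, n = 2 each), a log2 difference of 1.24 (standard error 0.39, 95% interval 0.28 to 2.20, or 2.36-fold). It did not pass in limma's fit (adjusted p = 0.714), nor with the replicate block (standard error 0.21, adjusted p = 0.113 by limma). Between the A arrays the log2 difference was 0.99, and between the B arrays 1.49. Over both letters it was 0.67 in rGRF3 and 0.41 in 35S:GIF1, each against Col-0, neither of which passed. With 1 array left out these values ran from 0.16 to 1.18 for rGRF3 and from 0.21 to 0.62 for 35S:GIF1. Such ranges include the difference between letters, because 1 letter of a genotype is then set against both letters of another. UGT72E2, which glucosylates monolignol alcohols, and UGT72E3 were not expressed.

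The flavonoid genes UGT78D1 and UGT78D2 had high signals. UGT78D2 (AT5G17050), which encodes the flavonoid 3-O-glucosyltransferase of flavonols and anthocyanins, had the most negative difference in 35S:GIF1. Its log2 signal for A and B was 7.62 and 8.52 in 35S:GIF1, 7.84 and 8.59 in rGRF3, 7.62 and 8.65 in the double line, and 8.00 and 9.51 in Col-0. Within each letter all 3 lines lay below Col-0, while across letters the ranges overlapped. The log2 difference from Col-0 was -0.68 for 35S:GIF1, -0.54 for rGRF3 and -0.62 for the double line (standard error 0.63), and none passed in limma's fit (adjusted p = 1.0, 1.0 and 0.891). With the block the standard error was 0.19 and the adjusted p by limma 0.773, 0.411 and 0.211. Between A arrays the differences were -0.39, -0.17 and -0.39, and between B arrays -0.98, -0.92 and -0.86. Without Col-0 B, which sets both letters of a line against Col-0 A alone, the values were 0.068, 0.21 and 0.13. UGT78D1 (AT1G30530), a flavonol 3-O-rhamnosyltransferase, lay at 10.25 and 10.87 in 35S:GIF1, 10.63 and 11.23 in rGRF3, 10.35 and 11.02 in the double line, and 10.44 and 11.54 in Col-0. The genotypes overlapped, and the log2 difference of -0.43 for 35S:GIF1 did not pass in limma's fit (adjusted p = 0.918 with the block). Without Col-0 B it was 0.12. UGT78D3, a flavonol arabinosyltransferase, was not expressed.

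UGT74B1 (AT1G24100) encodes the S-glucosyltransferase of glucosinolate synthesis, and its signal differed between the lines and Col-0 in opposite ways within the letters. On the A arrays it was 8.74 for 35S:GIF1, 8.82 for rGRF3 and 8.73 for the double line, against 7.94 in Col-0. On the B arrays it was 10.17, 10.31 and 9.84 in the same lines, against 10.52 in Col-0. The lines thus lay above Col-0 within letter A, with log2 differences of 0.79 to 0.88, and below it within letter B, with -0.68 to -0.22. With 1 array per genotype and letter, this turn of direction could not be tested. The means over both letters were 9.46 ± 1.02, 9.57 ± 1.05 and 9.28 ± 0.79 in the lines and 9.23 ± 1.83 in Col-0 (SD, n = 2 each). These SDs include the difference between the letters. The log2 differences from Col-0 were 0.22, 0.33 and 0.05, with a standard error of 1.01 without the block and 0.34 with it. None passed in limma's fit (adjusted p = 0.998, 0.718 and 0.952 with the block).

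Among hormone-related genes, UGT74D1 (AT2G31750), which glucosylates auxin and its oxidised form, had its most negative differences from Col-0 within letter B. It had log2 signals of 8.42 and 8.63 in 35S:GIF1, 8.33 and 8.04 in rGRF3, 8.15 and 8.16 in the double line, and 8.41 and 9.16 in Col-0. All arrays of rGRF3 and the double line lay below both Col-0 arrays (14.0% and 16.6% of all tested probe sets). The arrays of 35S:GIF1 overlapped Col-0. The log2 difference was -0.60 in rGRF3 and -0.63 in the double line (standard error 0.26), and neither passed in limma's fit (adjusted p = 1.0 and 0.758). With the block the standard error was 0.24 and the adjusted p by limma 0.437 and 0.270. Within letter B these differences were -1.12 and -0.999, and within letter A they were -0.08 and -0.26. Without Col-0 B the values over both letters were -0.23 and -0.26. The cytokinin N-glucosyltransferase genes UGT76C1 and UGT76C2 differed from Col-0 by -0.17 to 0.25 on the log2 scale in the 3 lines. UGT71C5 (AT1G07240), an abscisic acid glucosyltransferase, stood at 6.78 and 7.05 in the double line and 6.72 and 5.97 in Col-0. Its arrays there lay above both Col-0 arrays, as 15.8% of all tested probe sets did. The log2 difference of 0.57 (standard error 0.30) came to 0.05 between the A arrays and 1.08 between the B arrays. It did not pass in limma's fit (adjusted p = 0.813).

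The 3 expressed UGT85A genes had positive log2 differences from Col-0 in each line. UGT85A5 (AT1G22370) was 5.36 and 5.69 in 35S:GIF1, 5.60 and 6.31 in rGRF3, 5.46 and 5.69 in the double line, and 5.24 and 4.94 in Col-0. All 6 arrays of the lines lay above both Col-0 arrays. Its log2 difference was 0.87 in rGRF3 (standard error 0.28, 95% interval 0.20 to 1.54), with 0.36 within letter A and 1.37 within letter B, and it did not pass in limma's fit (adjusted p = 1.0). With the block the standard error was 0.23 and the adjusted p by limma 0.328. In 35S:GIF1 and the double line the log2 differences were 0.44 and 0.49. Its neighbour UGT85A2 (AT1G22360) was 6.30 and 7.74 in 35S:GIF1, 6.66 and 7.83 in rGRF3, 7.02 and 7.92 in the double line, and 6.24 and 7.07 in Col-0. Each line lay above Col-0 within each letter, by 0.78 and 0.85 in the double line, whereas the ranges over both letters overlapped. Its mean log2 difference was 0.82 in the double line (adjusted p = 0.864 by limma, and 0.153 with the replicate block), 0.59 in rGRF3 and 0.37 in 35S:GIF1. With 1 array left out the value for rGRF3 ran from 0.0062 to 1.18. Without 35S:GIF1 B the value for 35S:GIF1 was -0.35, and without Col-0 A it was -0.045. Leaving out 1 array sets 1 letter of a genotype against both letters of another, so these values include the difference between letters. Within letters A and B, 35S:GIF1 lay above Col-0 by 0.07 and 0.67. UGT85A4 (AT1G78270), which lies elsewhere on the chromosome, had log2 differences of 0.28 to 0.54, with values of -0.19 to -0.03 within letter A and 0.59 to 1.11 within letter B.

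UGT71C4 (AT1G07250) had closely spaced replicates and lay below Col-0 in 35S:GIF1. Its log2 signal was 6.81 and 6.77 in 35S:GIF1, 7.10 and 7.31 in rGRF3, 7.17 and 7.15 in the double line, and 7.36 and 7.35 in Col-0. Neither 35S:GIF1 nor the other lines overlapped Col-0, and 35S:GIF1 lay below the arrays of every other genotype. The mean was 6.79 ± 0.03 in 35S:GIF1 and 7.36 ± 0.01 in Col-0 (SD, n = 2 each), a log2 difference of -0.57 (standard error 0.13, 95% interval -0.89 to -0.25, unadjusted p = 0.00485 in limma's fit). It did not pass after adjustment over all probe sets (adjusted p = 1.0 by limma, and 0.727 with the replicate block). The difference was -0.55 between the A arrays, -0.58 between the B arrays and between -0.59 and -0.54 when any 1 array was left out. UGT71C4 was also the only UGT gene at least 0.5 lower on the log2 scale within both letters in 35S:GIF1, where 0.914% of all tested probe sets were. In rGRF3 and the double line its log2 differences were -0.15 and -0.20.

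UGT76E11 (AT3G46670) had log2 signals of 6.10 and 6.25 in 35S:GIF1, 6.12 and 5.96 in rGRF3, 6.03 and 5.80 in the double line, and 6.23 and 6.95 in Col-0. All arrays of rGRF3 and the double line lay below both Col-0 arrays (14.0% and 16.6% of all tested probe sets). The log2 differences were -0.55 in rGRF3 and -0.67 in the double line (standard error 0.25), and neither passed in limma's fit (adjusted p = 1.0 and 0.751). With the block the standard error was 0.24 and the adjusted p by limma 0.460 and 0.248. Within letter B they were -0.99 and -1.15, and within letter A they were -0.12 and -0.20. Without Col-0 B the values over both letters were -0.19 and -0.31. The sterol glucosyltransferase gene UGT80B1 and the genes UGT71B1, UGT72B3, UGT73B1, UGT87A2 and UGT88A1 had log2 differences of -0.40 to 0.36 in all 3 lines. Among these, UGT88A1 ran from 10.76 to 11.10 over the 8 arrays.

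**Figure D3:**
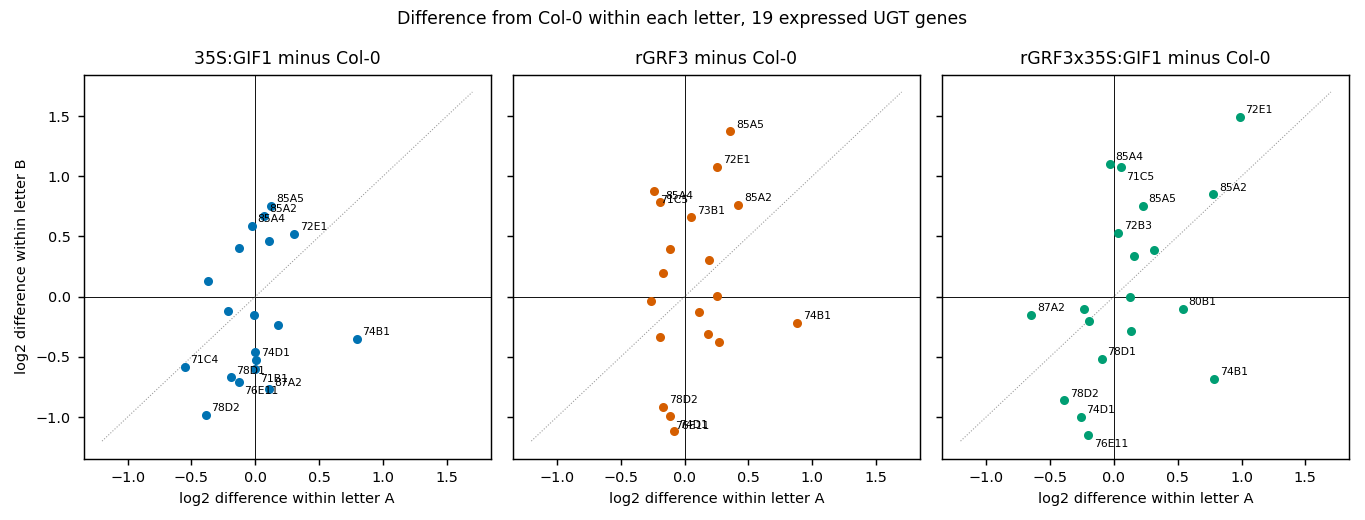
Log2 difference of each line from Col-0 within letter A (horizontal) and within letter B (vertical) for the 19 expressed UGT genes, with labels (without the prefix UGT) where either value reaches 0.5 in size and the dotted line marking equal values. UGT72E1 and UGT85A2 lie in the upper right in the double line, UGT71C4 lies near the dotted line in 35S:GIF1, and UGT74B1 lies in the lower right in all 3 panels.

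No UGT gene was 2-fold apart from Col-0 in the same direction within both letters in any line. Over all tested probe sets the 2-fold rule was met upward and downward by 0.0714% and 0.136% in 35S:GIF1, 0.314% and 0.107% in rGRF3, and 0.55% and 0.336% in the double line. With a log2 difference of 0.5, UGT72E1 and UGT85A2 were higher in the double line within both letters (2 of 19, with 2.8% of all probe sets), and UGT71C4 was lower in 35S:GIF1. Of the 19 genes, 4 were higher and 8 lower than Col-0 within both letters in 35S:GIF1 (23.7% and 26.8% of all probe sets), 6 and 5 in rGRF3 (23.5% and 30.0%), and 7 and 7 in the double line (29.7% and 31.1%). Without UGT72B3, which counted as expressed only through B arrays of rGRF3 and the double line, the numbers higher were 5 of 18 in rGRF3 and 6 of 18 in the double line, a count added after the values were seen. The absolute difference from Col-0 was larger within letter B than within letter A for 16 of 19 genes with 35S:GIF1, 16 with rGRF3 and 14 with both transgenes, against 56.7%, 59.3% and 60.8% of all probe sets. Without UGT72B3 these numbers were 15, 15 and 13 of 18. These 3 counts share the Col-0 B array.

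The arrays lettered B were compared with those lettered A, with genotype in the fit, to describe how far the letters themselves differ. Of the 19 genes, 7 passed in limma's fit, or 36.8%, beside 24.6% of all tested probe sets. UGT72E1, UGT74B1, UGT78D1, UGT78D2, UGT80B1 and UGT85A2 were higher on the B arrays (11.8% of all probe sets), and UGT76C2 was lower (12.7%). The glucosinolate gene UGT74B1 had log2 signals of 10.21 ± 0.29 on the B arrays and 8.56 ± 0.41 on the A arrays (SD, n = 4 each), or 3.15-fold (adjusted p = 0.00784 by limma). UGT78D2 was 8.82 ± 0.46 on the B arrays and 7.77 ± 0.19 on the A arrays (2.07-fold, adjusted p = 0.00575 by limma), and UGT78D1 was 11.16 ± 0.29 and 10.42 ± 0.16 in the same order (1.67-fold, adjusted p = 0.00855 by limma). Both flavonoid genes and UGT74B1 were thus higher on the B array of every genotype, as were UGT72E1, UGT80B1 and UGT85A2. These are 6 of 19 genes, beside 22.3% of all tested probe sets. UGT80B1, also known as TRANSPARENT TESTA 15, was 1.73-fold higher on the B arrays, UGT85A2 2.12-fold and UGT72E1 1.49-fold. The log2 signal of UGT76C2 on B and A was 7.07 and 7.88 in 35S:GIF1, 7.07 and 7.88 in rGRF3, 7.01 and 8.16 in the double line, and 6.67 and 8.00 in Col-0. The signal was thus lower on the B array of every genotype, as for 25.3% of all tested probe sets. UGT76C2 stood at 6.95 ± 0.19 on the B arrays and 7.98 ± 0.13 on the A arrays (SD, n = 4 each), a log2 difference of -1.02 (adjusted p = 0.0042 by limma). Its neighbour UGT76C1, also a cytokinin glucosyltransferase gene, had a log2 difference of -0.23, UGT71B1 one of -0.34, UGT73B1 one of -0.33 and UGT71C5 one of -0.13, and none of these passed.

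**Figure D4:**
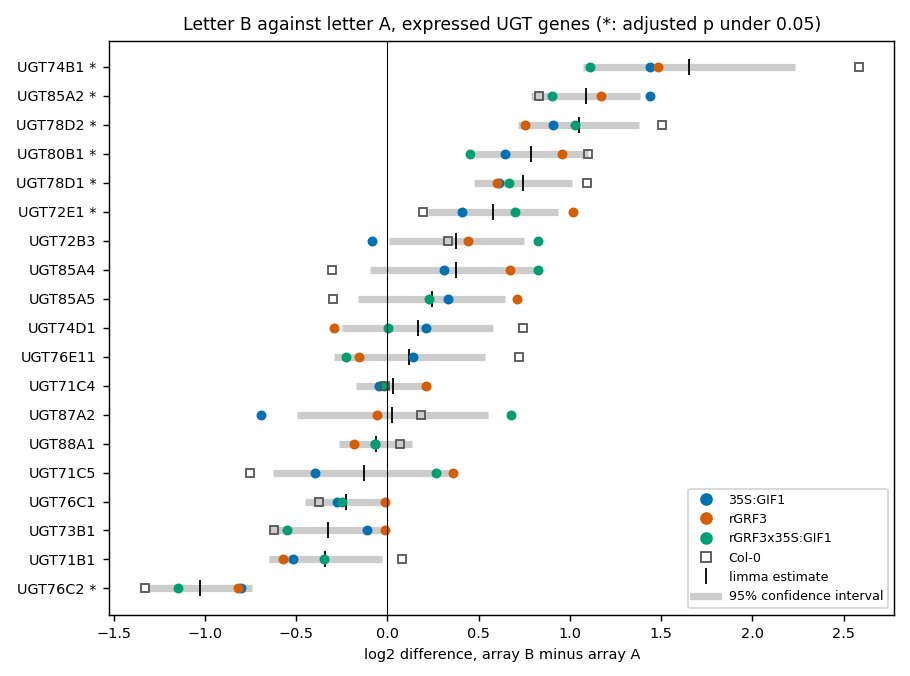
Log2 difference of array B minus array A for the 19 expressed UGT genes in each genotype (points, open squares for Col-0), with limma's estimate over the 4 genotypes (black bar) and its 95% confidence interval (grey). Asterisks mark the 7 genes that passed, and UGT74B1 has the widest difference, at 2.58 in Col-0 against 1.11 to 1.48 in the lines.

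Leaving out either array of a genotype removes that genotype from this comparison. The call of UGT72E1 ended without 35S:GIF1, rGRF3 or the double line (adjusted p = 0.0981, 0.0883 and 0.116 in limma's fit), while without Col-0 UGT71B1 and UGT85A4 passed as well, giving 9 genes. Over all tested probe sets 18.8% passed without Col-0, 7.59% without 35S:GIF1, 14.1% without rGRF3 and 12.8% without the double line. Without a filter on low values 2 genes, UGT76C2 and UGT85A2, passed in limma's fit, and in an ordinary linear model 0 did, with 7 of 19 at an unadjusted p under 0.05, where 31.6% of all tested probe sets were. Over all tested probe sets 3439 passed in limma's fit, against 1069 of 22746 without a filter and 419 in the ordinary linear model.

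The size of the difference between letters was itself larger in Col-0 than in each of the 3 lines for 10 of the 19 genes, beside 39.4% of all tested probe sets. For UGT74B1 the B minus A log2 difference was 1.44 for 35S:GIF1, 1.48 for rGRF3 and 1.11 for the double line, against 2.58 in Col-0. For UGT78D2 it was 0.91, 0.75 and 1.03 in these lines, against 1.51 in Col-0. UGT85A2 and UGT72E1 went the other way, with UGT85A2 at 1.44, 1.17 and 0.90 against 0.83 in Col-0, and UGT72E1 at 0.41, 1.02 and 0.70 against 0.19 in Col-0. Each of these differences rests on 2 arrays and was not tested. The deposited Col-0 values carry up to 9 decimals and those of the lines 3. Any separate handling of the Col-0 values cannot be told apart from genotype.

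Comparing the double line with rGRF3 and with 35S:GIF1 shows whether UGT transcripts differ when the other transgene is added. No UGT gene passed in limma's fit against rGRF3 (0 of 19, with 0.00714% of all tested probe sets called) or against 35S:GIF1 (0 of 19, with 0.0% called), with 0 and 1 at an unadjusted p under 0.05 (1.26% and 2.53% of all tested probe sets). With the replicate block these numbers were 2 and 5 (4.67% and 8.53%). Against rGRF3, UGT72E1 and UGT80B1 had the largest positive log2 differences (0.57 and 0.49), and UGT87A2, a gene linked to flowering time, and UGT85A5 the most negative (-0.39 and -0.37). With 1 array left out these values ran from 0.0635 to 1.08 for UGT72E1, 0.0075 to 0.96 for UGT80B1, -0.73 to -0.0545 for UGT87A2 and -0.73 to -0.018 for UGT85A5. Such ranges include the difference between letters, because 1 letter of a genotype is then set against both letters of another. Against 35S:GIF1, UGT72E1 and UGT73B1 had the largest positive ones (0.83 and 0.47), and UGT74D1 and UGT76E11 the most negative (-0.37 and -0.26). The gene at an unadjusted p under 0.05 was UGT71C4, with 7.16 ± 0.01 in the double line and 6.79 ± 0.03 in 35S:GIF1 (SD, n = 2 each), a log2 difference of 0.37 (adjusted p = 1.0 by limma). Both of its arrays in the double line lay above both in 35S:GIF1, as 14.1% of all tested probe sets did.

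The interaction asks whether the difference made by 35S:GIF1 is another one when rGRF3 is present. It subtracts the difference of 35S:GIF1 from Col-0 from that of the double line from rGRF3. No UGT gene passed in limma's fit (0 of 19, with 0.0% of all tested probe sets called). At an unadjusted p under 0.05 there was 1 UGT gene, beside 0.878% of all tested probe sets, and with the block there were 3, beside 3.43%. The largest positive values were 0.72 for UGT80B1 and 0.60 for UGT78D2, and the most negative were -0.81 for UGT85A5 and -0.50 for UGT74B1, on the log2 scale. UGT71C4 had a value of 0.52 (standard error 0.19, unadjusted p = 0.0316 in limma's fit): the log2 difference was -0.0505 for the double line against rGRF3 and -0.57 for 35S:GIF1 against Col-0.

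Genes of the pathways that supply UGT acceptors were read beside the family. Names were matched by symbol or by an unambiguous synonym, so a gene whose name was not matched may still have a probe set. Of 30 names listed for flavonoid and anthocyanin synthesis, 3 were matched to a tested probe set, DFR, UF3GT and AT5MAT. None passed between genotypes, with median log2 differences from Col-0 of -0.90 for 35S:GIF1, -0.34 for rGRF3 and 0.021 for the double line. All 3 were higher on the B arrays. UF3GT lay at 2.53 to 3.71 on the A arrays and 7.38 to 8.60 on the B arrays, and AT5MAT at 2.25 to 2.41 and 5.67 to 7.38. Both were tested only through their B arrays. The filter thus favoured higher values there, and their direction is no support for a difference between letters. DFR, the reductase that supplies anthocyanins, was 27.8-fold higher on the B arrays (adjusted p = 0.00038 by limma). In glucosinolate synthesis 2 of 28 names were tested. BCAT4, an aminotransferase of methionine-derived glucosinolates, was 5.03-fold higher on the B arrays (adjusted p = 0.00825 by limma), and the glucosinolate transporter gene GTR1 did not pass (log2 difference 0.34). Neither passed between genotypes.

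Of 10 listed glycosyltransferase names without the UGT symbol, 3 were matched by name to a tested probe set that was not already a member. IAGLU (AT4G15550), an auxin glucosyltransferase gene, had a log2 signal of 4.33 and 4.10 in 35S:GIF1, 4.90 and 4.36 in rGRF3, 4.34 and 4.34 in the double line, and 5.75 and 5.37 in Col-0. Every array of the lines lay below both Col-0 arrays, at 4.10 to 4.90 and so close to the expression threshold of 4. The log2 differences of -1.35, -0.93 and -1.22 did not pass in limma's fit (lowest adjusted p = 0.564, in the double line). With the block they did not pass either (adjusted p = 0.254, 0.211 and 0.075 by limma). GT72B1 and the flavonoid glycosyltransferase gene UF3GT did not pass between genotypes either. UF3GT passed between the letters, but was tested only through its B arrays. Of 45 names for cytokinin, brassinosteroid, salicylate and auxin metabolism, 3 were tested (YUC4, GH3.3 and WES1, which is also called GH3.5), and none passed in any comparison. WES1, an auxin-conjugating enzyme gene, stood at 9.40 and 9.11 in the double line and 7.78 and 7.16 in Col-0, a log2 difference of 1.79 (adjusted p = 0.525 by limma, and 0.123 with the block).

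The tissue label was checked on the few markers that could be matched by name to a probe set of their own. The leaf primordium genes YAB3, YAB5 and PHV were expressed on all 8 arrays, as was RCA of photosynthetic leaves, and the stem cell gene CLV3 lay at the lowest signal on all of them. RCA, YAB3 and TRY, a gene of trichome patterning, were lower on the B array of every genotype, as 25.3% of all tested probe sets were. PHV and the root gene PYK10 were higher on the B array of every genotype, as 22.3% were, and YAB5 went both ways. RCA stood at 14.26, 14.12, 14.22 and 14.28 on the B arrays and 14.48, 14.38, 14.39 and 14.72 on the A arrays of 35S:GIF1, rGRF3, the double line and Col-0. TRY stood at 5.01, 5.45, 5.22 and 5.35 on the B arrays and 6.11, 5.73, 6.09 and 6.02 on the A arrays of the same genotypes. The part of these markers in the difference of UGT genes between the letters was not tested. None of the 8 listed floral markers could be matched by name to such a probe set. Of the root list, EXPA7 did not exceed 2.19, whereas PYK10 ran from 12.31 to 12.74 in the lines and was 11.65 and 12.20 in Col-0. The control for 25S ribosomal RNA stood at 7.88 and 6.66 in 35S:GIF1, 8.23 and 6.76 in rGRF3, 10.90 and 6.35 in the double line, and 6.22 and 7.01 in Col-0. The part of PYK10 or of the ribosomal control in the differences between lines and Col-0 was not tested. In such tissue samples, fewer cells of a type and less RNA per cell cannot be told apart.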

How the data were processed

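Values were analysed as deposited: 1 log2 signal per probe set and array, from GCRMA and limma per the submitters' processing notes, whose versions the sources used here do not give. Signals ran from 2.12 to 15.55 on the log2 scale, with array medians of 5.90 to 5.97. Of 22810 probe sets, 64 Affymetrix controls were left out, and 14005 with a log2 signal of at least 4 on at least 2 arrays were tested. Names came from the platform annotation, and all 47 UGT genes matched the gene table of TAIR10.1. No UGT gene had several single-gene probe sets. Group means over all 8 arrays were fitted with limma 3.58.1 in R 4.3.3 (lmFit, contrasts.fit, eBayes), with Benjamini-Hochberg adjustment within each contrast and calls at 0.05. The code of the fit was checked on simulated data, with added differences larger than any mean difference of a UGT gene from Col-0. This check does not measure the power to find differences of the size seen here. Summaries and figures came from Python 3.11.15 with numpy 2.4.6, pandas 2.3.3 and matplotlib 3.10.9.

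The letters pair the arrays: the A minus B differences of the 6 pairs of genotypes correlated at 0.59 to 0.75 over tested probe sets. This comes from the data, not the labels. The members, lists, tests and naming rule were chosen with earlier results of these data known. By that rule the text names UGT71C4, genes that passed, the largest differences per contrast (3 per direction against Col-0, 5 for the letters, 2 otherwise) and the 5 highest means (UGT88A1, UGT78D1, UGT74B1, UGT74D1 and UGT78D2). Other expressed genes were added for their known role or range. In the flavonoid list, CHI was dropped because the annotation gives that symbol to AT2G43570, which is not chalcone isomerase. Alternatives were the replicate block, 2 other filters, a trended and robust variance, array weights, an ordinary linear model, the compared groups alone, a repeated quantile normalization and leaving out each array. The number of arrays limits the precision.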

Additional observations from a re-analysis of the deposited data

How the results depend on the processing

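No UGT gene passed between genotypes under any alternative run, the replicate block included, and the block changed no call. For the letters, 7 genes passed, against 2 without a filter, 0 in the ordinary linear model and 6 to 9 with 1 array left out. Over all probe sets, 1069 passed without a filter and 419 in the ordinary linear model and 1063 to 2634 with 1 array left out, against 3439, and the cause was not tested. Genes 2-fold apart within both letters numbered 0, and 3 at a log2 difference of 0.5. With 1 array left out, log2 differences turned in sign for UGT78D2 in 35S:GIF1 (-1.44 to 0.068), rGRF3 (-1.29 to 0.21) and the double line (-1.38 to 0.13) against Col-0 and in the interaction (-0.15 to 1.35), for UGT78D1 (-0.98 to 0.12) and UGT85A2 (-0.35 to 1.09) in 35S:GIF1 against Col-0, for UGT74B1 in the interaction (-1.80 to 0.79) and for UGT71C5 between the letters (-0.29 to 0.077). Leaving out 1 array sets 1 letter of a genotype against both letters of another. The second probe set per gene could not be tried, because each gene had 1. At an expression level of 3 there were 23 expressed genes and at a level of 5 there were 18, against 19. Of the 43 differences of named genes, leaving out 1 array kept direction and side of the threshold in 323 values, ended a call in 6, added a call in 2 and turned the sign in 13. The other settings kept both in 305, ended a call in 12 and added a call in 1.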
